A study of Mus musculus with 10 samples.

Results

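Expression of 7 genes that mark neocortical or subicular neurons (Tbr1, Rorb, Fezf2, Foxp2, Cux2, Tle4 and Fn1) was followed in dissected hippocampus of 5 Dp3Yah mice and 5 controls. They were chosen by name, with earlier results of these data known, and each was read from its probe set annotated to 1 gene. All 7 were measured, out of 19939 genes on the array. The rule for a gene with several probe sets takes the one with the highest mean over all 10 arrays, but each of the 7 has only 1, so no measured value decided between probe sets.

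The Dp3Yah mice carry 3 copies, against 2 in control littermates, of the chromosome 16 interval between Hspa13 and App. App itself is not duplicated as a complete gene. The duplication is present in every cell, and the mice come from a single engineered line. All mice of both groups were 16-week-old males, on C57BL/6N per the labels and on a background backcrossed towards C57BL/6J per the study's methods. Total RNA of both hippocampi of a mouse went onto 1 Affymetrix Mouse Gene 1.0 ST array, and values are RMA values on the log2 scale, so that a difference of 1 is a doubling.

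The hippocampus lies under the neocortex and continues through the subiculum, a transition zone, into the entorhinal cortex. Neocortical excitatory neurons are stacked in layers, and each layer uses its own transcription factors during development and often in the adult. A piece of overlying cortex or of subiculum that comes along with the hippocampus carries these transcripts into the RNA, and for that reason they are commonly read as a measure of how the tissue was cut. Several of the genes are also used at a lower level by some hippocampal cells. In RNA from a whole tissue, more cells of a type and more RNA per cell cannot be told apart.

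The labels were first set against the duplicated genes and the tissue. Mrpl39, Hspa13 and Ncam2 of the interval rose in Dp3Yah mice by 0.48, 0.60 and 0.58 on the log2 scale (limma adjusted p = 0.00336, 0.0122 and 0.0122), and in each of them 5 of 5 Dp3Yah mice lay above every control. These 3 were the only genes called over the whole array, so they are not a sample of the interval chosen beforehand. Other genes of the interval were not called, among them Usp25 (0.36, limma adjusted p = 0.0785), Jam2 (0.54, 0.0998) and Atp5j (0.28, 0.509). Leaving out Dp3Yah replicate 4 or control replicate 3, 4 or 5 ended the calls of Hspa13 and Ncam2, and leaving out Dp3Yah replicate 5 ended that of Ncam2. Arrays had medians of 6.32 to 6.39 in Dp3Yah mice and 6.35 to 6.41 in controls over all genes. Dp3Yah replicate 2 had the widest scatter around the other arrays (interquartile range of its deviations from gene medians 0.137, against 0.085 to 0.108 in the other Dp3Yah mice and 0.090 to 0.110 in controls). This mouse was the lowest of the 10 in 23.8% of all genes. The dentate marker Prox1, a transcription factor of granule cells, had log2 values of 8.05 to 8.66 in Dp3Yah mice and 8.33 to 8.82 in controls, and Wfs1, a gene of CA1 pyramidal cells, had 9.79 to 10.40 in Dp3Yah mice and 9.59 to 10.37 in controls. The limma p-values set each group difference against the spread between mice, with the variance moderated over all genes. The number of mice limits the precision.

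None of the 7 genes was called different between Dp3Yah and control mice, and each of them overlapped between the groups. Limma called 0 of the 7 at an adjusted p under 0.05, where 0.0150% of all 19939 genes were called, and at an unadjusted p under 0.05 it also gave 0 of 7, against 5.08% of all genes. In 0 of 7 did the groups lie apart, against 0.913% of all genes. A fold-change rank test, written after the one that the study used, called 0 of 7, against 4.59%. This rank test scales the mean rank of a gene by the spread over all genes. The share of all genes that it calls is therefore largely set by its thresholds, and its calls are no evidence of a difference by themselves. Of the 7 differences 6 were negative, with a median of -0.05, against 10611 of 19939 over all genes, with a median of -0.00. With 7 genes these shares do not tell the list from the rest of the array. The median turned positive, to 0.02, without Dp3Yah replicate 2, and likewise to 0.02 without control replicate 2, so it has no settled sign.

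Tbr1, a T-box transcription factor of early-born and layer 6 neurons, lies on chromosome 2 (61802863 to 61814114, GRCm38.p6). Its log2 values were 8.98, 8.66, 9.30, 9.56 and 8.98 in Dp3Yah replicates 1 to 5, against 8.95, 9.53, 9.11, 9.09 and 9.05 in control replicates 1 to 5. Dp3Yah replicate 4 and control replicate 2 stood well above the rest and Dp3Yah replicate 2 below, so both ends of the range were held by Dp3Yah mice. The difference was -0.05 (SE 0.15, 95% interval -0.38 to 0.28, limma adjusted p = 0.984). Between the highest and the lowest mouse the gene spanned 1.87-fold.

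Fezf2, a zinc-finger factor that specifies subcerebral projection neurons of layer 5, lies on chromosome 14 (12338992 to 12346803). It had log2 values of 8.87, 8.42, 8.86, 8.99 and 8.56 in Dp3Yah mice, against 8.94, 8.97, 8.73, 8.81 and 8.69 in controls. The 2 lowest mice were Dp3Yah replicates 2 and 5, and the highest was Dp3Yah replicate 4, with control replicate 2 close to it. The difference was -0.09 (SE 0.10, 95% interval -0.31 to 0.13, adjusted p = 0.951).

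Cux2, a homeodomain factor of upper-layer neurons, lies on chromosome 5 (121857962 to 122050415) and varied most of the 7. Its log2 values were 7.31, 6.59, 7.79, 7.40 and 7.34 in Dp3Yah mice, against 6.97, 7.64, 7.34, 7.43 and 7.30 in controls. The lowest and the highest mouse were both Dp3Yah, replicates 2 and 3, and 2.28-fold apart. The difference was -0.05 (SE 0.18, 95% interval -0.44 to 0.34, adjusted p = 0.985).

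Rorb, an orphan nuclear receptor that marks layer 4, lies on chromosome 19 (18930609 to 19111196). It had log2 values of 7.56, 7.54, 7.67, 7.54 and 7.61 in Dp3Yah mice, against 7.45, 7.52, 7.35, 7.68 and 7.55 in controls. The Dp3Yah mice lay inside the control range, which ran from replicate 3 up to replicate 4. Rorb was the 1 gene of the 7 with a positive difference, 0.08 (SE 0.06, 95% interval -0.05 to 0.20, adjusted p = 0.939).

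Tle4, a Groucho-family corepressor of layer 6 neurons, also lies on chromosome 19 (14448072 to 14598183). Its log2 values were 8.67, 8.72, 8.66, 8.81 and 8.57 in Dp3Yah mice, against 8.77, 8.78, 8.79, 8.71 and 8.69 in controls. Of the Dp3Yah mice 3 lay below every control and 1 above every control, within a span of only 1.18-fold over the 10 mice. The difference was -0.06 (SE 0.05, 95% interval -0.17 to 0.04, adjusted p = 0.939).

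Foxp2, a forkhead factor of deep layers, lies on chromosome 6 (14901349 to 15441977), and its mean was the only one of the 7 below the median level of all genes (6.38). The log2 values were 5.62, 5.41, 5.64, 5.61 and 5.76 in Dp3Yah mice, against 5.46, 5.78, 5.43, 5.69 and 5.87 in controls. Low and high mice were found in both groups. The difference was -0.04 (SE 0.09, 95% interval -0.23 to 0.15, adjusted p = 0.977).

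Fn1, which encodes the matrix protein fibronectin, is expressed in neurons of the dorsal subiculum and also in vessels and fibroblasts. It lies on chromosome 1 (71585473 to 71653280). It had log2 values of 9.03, 8.74, 9.0, 8.88 and 8.57 in Dp3Yah mice, against 8.83, 8.99, 8.79, 8.75 and 8.86 in controls. The 2 highest mice and the 2 lowest were all Dp3Yah, with the controls between them. The difference was -0.00 (SE 0.08, 95% interval -0.18 to 0.17, adjusted p = 0.997).

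**Figure D1:**
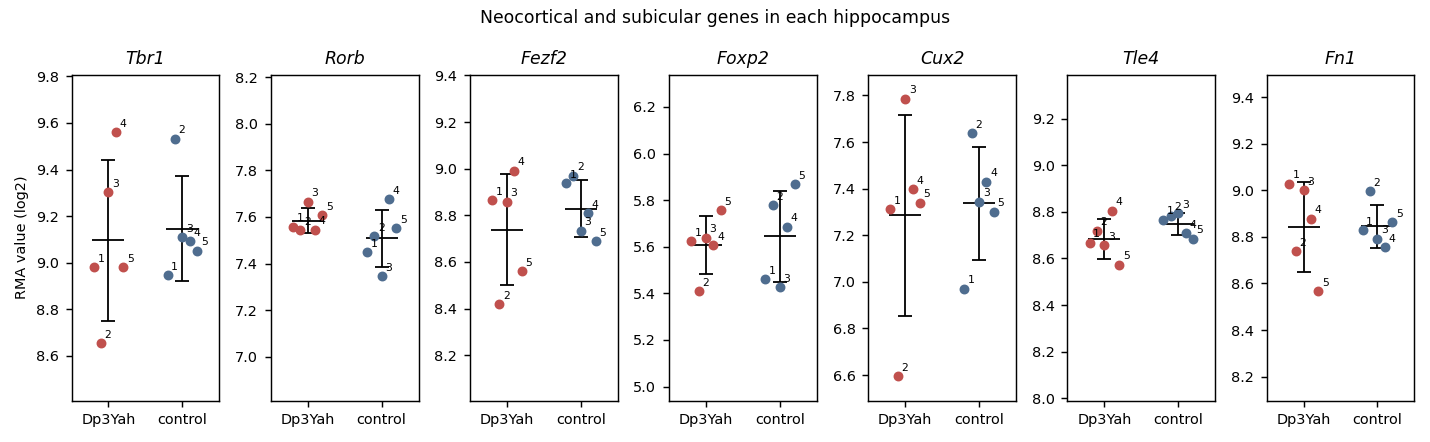
RMA value (log2) of each of the 7 genes in each mouse, Dp3Yah left and control right, with replicate numbers beside the points, the group mean as a bar and the SD as whiskers (n = 5 each). All panels span the same number of log2 units, and the points of the groups overlap in every panel, most widely in Cux2 (6.59 to 7.79 in Dp3Yah mice, 6.97 to 7.64 in controls).

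**Figure D2:**
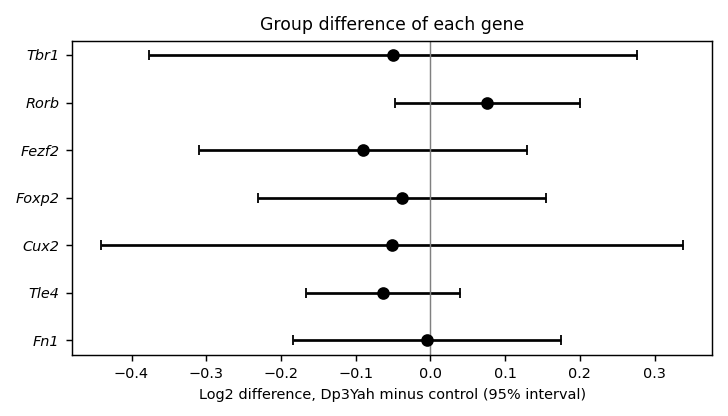
Log2 difference of each gene, Dp3Yah minus control, with its 95% interval from limma (n = 5 each). All 7 intervals cover 0, and the widest, of Cux2, runs from -0.44 to 0.34.

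The genes differed more between mice than between the groups. The SD within groups was 0.35 for Cux2, 0.29 for Tbr1 and 0.19 for Fezf2, and 99.4%, 98.9% and 95.2% of all genes had a smaller one. Foxp2 (0.16) and Fn1 (0.15) exceeded 91.7% and 89.1% of all genes. Rorb, at 0.09, was close to the median SD of all genes (0.09), and Tle4, at 0.07, was below it. The SD was larger among Dp3Yah mice than among controls in 5 of the 7 genes, and in 4 of 7 without Dp3Yah replicate 2. Of all genes, 55.9% had the larger SD in Dp3Yah mice.

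To compare mice over the whole list, the deviation of each gene from its mean over the 10 mice was averaged over the 7 genes. Cux2 and Tbr1, which vary most, weigh most in this mean deviation. It was 0.01, -0.27, 0.14, 0.12 and -0.08 in Dp3Yah replicates 1 to 5, against -0.08, 0.18, -0.06, 0.03 and 0.01 in control replicates 1 to 5. Dp3Yah replicate 2 was lowest: it was the lowest of the 10 mice in 4 of the 7 genes, and only 1 gene lay above its mean there. Control replicate 2 and Dp3Yah replicates 3 and 4 were highest, with 6, 6 and 5 of 7 genes above their means. Group means were -0.02 ± 0.17 in Dp3Yah mice and 0.02 ± 0.10 in controls (SD, n = 5 each).

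**Figure D3:**
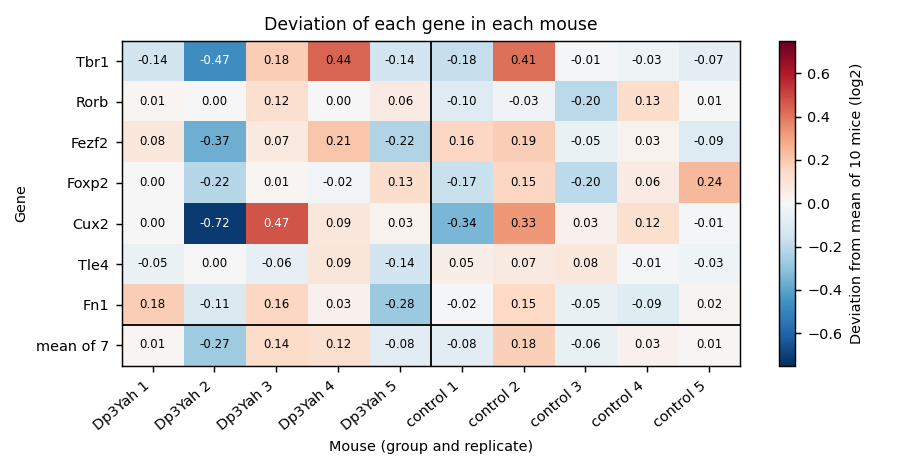
Deviation of each gene (rows) in each mouse (columns, Dp3Yah left of the line and control right) from the gene's mean over 10 mice, in log2 units, with the mean over the 7 genes in the last row. Dp3Yah replicate 2 holds the lowest values, down to -0.72 for Cux2, and control replicate 2 and Dp3Yah replicates 3 and 4 have mean deviations of 0.18, 0.14 and 0.12.

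Not all of the 7 genes moved together from mouse to mouse. Over the 21 pairs of genes Pearson's r across the 10 mice had a median of 0.39 and was above 0.5 in 6 pairs, above 0 in 16 and below 0 in 5. The median was 0.24 without Dp3Yah replicate 2 and control replicate 2. These are descriptions, since the pairs share arrays and the genes were taken as a list. Tbr1, Cux2 and Fezf2 formed the closest trio: r was 0.78 between Tbr1 and Cux2 (rho 0.84), 0.76 between Tbr1 and Fezf2 (rho 0.61) and 0.58 between Fezf2 and Cux2 (rho 0.44). Without Dp3Yah replicate 2 and control replicate 2, the mice farthest from the median, these values were 0.54, 0.50 and -0.06, so the link of Fezf2 with Cux2 rests on those 2 mice. Fezf2 and Fn1 had r = 0.67 (rho 0.68), and 0.65 without them. Taking away each group's mean left the 3 values of the trio at 0.78, 0.76 and 0.58.

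Rorb and Tle4 ran most nearly opposite, with r = -0.63 (rho -0.73), and -0.63 without the 2 far mice. Rorb went instead with Foxp2 (r = 0.52, rho 0.48, and 0.67 without them), and Foxp2 with Tle4 had r = -0.42 (rho -0.43, and -0.66 without them). The layer 4 gene and the deep-layer corepressor did not give the same order of mice. The 250 bases before the first of 2 listed starts of Rorb and of Tle4 are shown because they belong to this opposed pair. Both stand on the minus strand of chromosome 19, 5′ to 3′, from RefSeq on GRCm38.p6 at chr19:19111197-19111446 and chr19:14598184-14598433, with the GC box and the CCAAT box in capitals.
Rorb: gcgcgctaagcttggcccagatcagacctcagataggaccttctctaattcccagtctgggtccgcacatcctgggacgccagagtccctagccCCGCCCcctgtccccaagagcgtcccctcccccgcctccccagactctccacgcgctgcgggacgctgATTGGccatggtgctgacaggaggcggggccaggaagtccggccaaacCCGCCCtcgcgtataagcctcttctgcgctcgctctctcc
Tle4: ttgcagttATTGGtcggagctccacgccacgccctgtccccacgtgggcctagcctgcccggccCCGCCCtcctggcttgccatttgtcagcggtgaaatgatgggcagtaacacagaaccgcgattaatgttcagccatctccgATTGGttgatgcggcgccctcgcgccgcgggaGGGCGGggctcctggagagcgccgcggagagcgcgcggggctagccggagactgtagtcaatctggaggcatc
Each of these windows held 2 GC boxes (GGGCGG, on either strand). The CCAAT box (CCAAT, on either strand) stood 1 time before Rorb and 2 times before Tle4, and no box overlapped another. The window of the other listed start held neither box in Rorb, and 1 GC box and no CCAAT box in Tle4. Among 32851 promoter windows of this length, 32.7% held a GC box and 33.8% a CCAAT box. Neither window held the T-box core GGTGTGA (3.33% of windows) or the E-box CAGATG (14.4%). These are matches of letters and say nothing about binding.

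Other neocortical genes, none of them among the 7, put the mice in nearly the same order. This list held 26 measured genes of neocortical layers. Their mean deviation was -0.04, -0.33, 0.11, 0.14 and -0.01 in Dp3Yah mice, against -0.02, 0.17, -0.03, 0.02 and 0.00 in controls, and followed that of the 7 genes with r = 0.95 (rho 0.83), and r = 0.87 without the 2 far mice. Single genes of the 7 followed this list to very different degrees. Tbr1 had r = 0.92 with it (0.93 without the far mice) and Cux2 0.88 (0.61), but Rorb only 0.15 (0.42) and Tle4 0.18 (0.20). Fezf2 had 0.81 (0.48), Foxp2 0.55 (0.11) and Fn1 0.45 (0.29).

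Of the 26 genes, 17 (65.4%) had r above 0.5 with the mean deviation of the 7 genes, against 16.9% of all 19932 other genes, and the median r was 0.71 against 0.09. The other genes were taken at any level and spread, and a share among genes of like level and spread was not worked out. The highest was Cplx3, a complexin of layer 6b neurons, at r = 0.93. Its log2 values were 5.81, 5.21, 6.04, 6.01 and 5.79 in Dp3Yah mice, against 5.66, 6.21, 5.66, 5.71 and 5.6 in controls. Mef2c, a MADS-box transcription factor, was next at r = 0.92. Ccn2, a matricellular protein of layer 6b, also had r = 0.92, with log2 values of 8.09, 7.27, 8.69, 8.81 and 8.27 in Dp3Yah mice, against 8.06, 8.66, 8.25, 8.26 and 8.10 in controls. In Cplx3 and Ccn2, Dp3Yah replicate 2 was the lowest mouse, as it was in 16 of the 26 genes, against 23.8% of all genes. The membrane protein Lamp5 (0.90) and the zinc-finger factor Tshz2 (0.89) followed. Of the 9 genes that did not reach 0.5, Otof (0.43), Etv1 (0.36), Moxd1 (0.28), Nxph4 (0.26) and Syt6 (0.15) had a positive r. The negative ones were Crym (r = -0.69), Neurod6 (-0.53), Sulf1 (-0.41) and Bcl11b (-0.14). Neurod6 and Bcl11b are also used by hippocampal neurons, and whether genes with a high r are too was not examined here.

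None of the 26 was called different between the groups by limma, nor had any an unadjusted p under 0.05. The rank test called 2, Scnn1a and Rspo1, both lower in Dp3Yah mice, against 4.59% of all genes. Differences were negative in 19 and positive in 7, with a median of -0.05, where 10611 of all 19939 genes had a negative one. The smallest unadjusted p belonged to Scnn1a, a sodium channel subunit of layer 4, at -0.22 (SE 0.12, adjusted p = 0.922). Its log2 values were 6.51, 5.89, 6.49, 6.60 and 6.53 in Dp3Yah mice, against 6.39, 6.73, 6.63, 6.64 and 6.73 in controls, with Dp3Yah replicate 2 far below the others. The Wnt agonist Rspo1 had -0.17 (adjusted p = 0.922), the thyroid hormone-binding protein Crym 0.14 (adjusted p = 0.930) and Tshz2 -0.38 (SE 0.30, adjusted p = 0.939). Tshz2 was 7.14 in Dp3Yah replicate 2, against 8.60 to 9.08 in the other Dp3Yah mice and 8.44 to 9.25 in controls.

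All 6 other subicular genes were measured and gave a mixed picture. Their mean deviation was -0.03, -0.44, 0.09, 0.13 and 0.11 in Dp3Yah mice, against 0.03, 0.08, -0.04, 0.05 and 0.02 in controls, and its r with the 7 genes of 0.78 (rho 0.55) was 0.44 without the 2 far mice. Rxfp1, the relaxin receptor, had r = 0.87 with the 7 genes. Its log2 values were 6.42, 5.01, 6.95, 7.19 and 6.54 in Dp3Yah mice, against 6.24, 6.90, 6.71, 6.76 and 6.25 in controls, so that Dp3Yah replicate 2 lay more than 1 log2 unit below every other mouse. Fn1 itself was lowest in Dp3Yah replicate 5, with Dp3Yah replicate 2 next. The neuropeptide gene Nts had r = 0.67, the vesicular glutamate transporter Slc17a6, which thalamic neurons use too, 0.32, the dopamine receptor Drd1 0.03, and Dlk1, a ligand related to Notch ligands, -0.40. Group differences of these 4, the ones with the smallest p, were -0.10, -0.12, -0.08 and 0.10 (limma adjusted p = 0.950, 0.963, 0.942 and 0.956), and 0 of the 6 had an unadjusted p under 0.05.

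Most pyramidal cell genes of the hippocampus itself ran the other way. Over 14 measured genes of CA1, CA2 and CA3, 11 had a negative r with the mean deviation of the 7 genes, with a median of -0.64. The mean deviation of the pyramidal list was 0.12, 0.21, -0.06, -0.04 and -0.05 in Dp3Yah mice, against 0.06, -0.18, 0.06, -0.09 and -0.02 in controls (r = -0.80, rho -0.72, and r = -0.41 without the 2 far mice). It was highest in Dp3Yah replicate 2 and lowest in control replicate 2, the mice at the opposite ends of the neocortical genes. The exceptions, with a positive r, were the CA1 gene Wfs1 (0.58), Mpped1 (0.30) and Pou3f1 (0.11). Nectin3, an adhesion molecule of the list, had log2 values of 7.77, 8.40, 7.54, 7.68 and 7.68 in Dp3Yah mice, against 7.85, 7.17, 7.81, 7.68 and 7.85 in controls. In the pyramidal list 10 of 14 group differences were positive, with a median of 0.07, against 9328 of 19939 over all genes. Limma called 0 of these 14, and 0 had an unadjusted p under 0.05. The rank test called 2 of 14, Fibcd1 and Man1a, both higher in Dp3Yah mice, against 4.59% of all genes. Dentate granule genes followed the 7 genes less (r = -0.26, rho -0.37, but -0.59 without the 2 far mice), with 10 of 14 negative. In this dentate list 12 of 14 group differences were negative, with a median of -0.14, against 10611 of 19939 over all genes. Limma called 0 of the 14 after adjustment. An unadjusted p under 0.05 was found in 4 of 14, all lower in Dp3Yah mice, against 5.08% of all genes, and the rank test called 5 of 14 (C1ql2, Plk5, Stxbp6, Fam163b and Lct), all lower, against 4.59%. The complement-related gene C1ql2 had log2 values of 8.15, 8.15, 8.11, 8.27 and 8.32 in Dp3Yah mice, against 8.55, 8.44, 8.41, 8.45 and 8.36 in controls. All 5 Dp3Yah mice lay below every control (limma adjusted p = 0.708). Its part in the values of the 7 genes was not tested.

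Choroid plexus, which lies against the hippocampus and is easily carried along, varied far more than any of these. Of its 15 listed genes 13 were measured. The list's mean deviation was 0.20, 0.65, -0.73, -0.72 and 0.88 in Dp3Yah replicates 1 to 5, against 0.83, -0.80, -0.65, -0.63 and 0.96 in control replicates 1 to 5. The mice formed separate clusters of 5 and 5, each with mice of both groups and each under the 6 mice needed for a correlation, so none is given. Ttr, the transthyretin gene that choroid plexus cells use most, had log2 values of 12.7, 13.0, 9.62, 9.37 and 13.4 in Dp3Yah mice, against 13.2, 8.99, 10.2, 10.3 and 13.3 in controls. Dp3Yah replicate 2, lowest in the 7 genes, was among the mice rich in Ttr, and control replicate 2, highest in the 7 genes, had the least. The part of the choroid plexus in the order of the 7 genes was not tested.

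Genes of the thalamus, another neighbour of the hippocampus, also varied widely. The mean deviation of 6 thalamic genes was 0.08, 0.11, -0.33, -0.29 and 0.30 in Dp3Yah replicates 1 to 5, against 0.14, -0.44, -0.34, 0.21 and 0.56 in control replicates 1 to 5. It was lowest in control replicate 2, the highest mouse in the 7 genes, and 6 mice lay above 0 and 4 well below it. Over all 10 mice, and so across both sets, r with the 7 genes was -0.49 (rho -0.52), and -0.45 without the 2 far mice. Of the 6 thalamic genes 5 had a negative r. Within the 6 mice above 0 alone, r was 0.37 (rho 0.14), and the other 4 are too few for one. This part was cut on the thalamic values themselves and holds 6 mice, so its sign is not settled. The part of thalamic tissue in the order of the 7 genes was not tested.

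**Figure D4:**
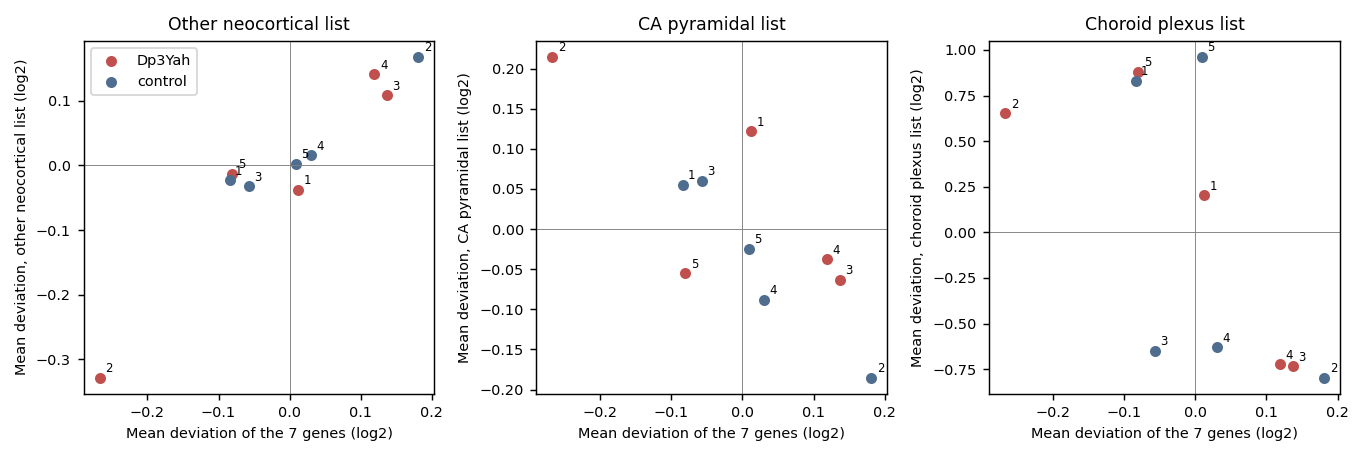
Mean deviation of the 7 genes in each mouse (horizontal) against the mean deviation of other neocortical, CA pyramidal and choroid plexus genes (vertical), all in log2 units, with replicate numbers beside the points. Neocortical genes have r = 0.95 and pyramidal genes r = -0.80 with the 7 genes, and for choroid plexus genes the mice form clusters, from 0.20 to 0.96 and from -0.80 to -0.63.

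Cell types that also use Fn1 were followed with lists of their own. The mean deviation of 8 endothelial genes ran from -0.08 to 0.10 in Dp3Yah mice and -0.07 to 0.13 in controls, and that of 8 mural genes from -0.06 to 0.03 in Dp3Yah mice and -0.05 to 0.07 in controls. Fibroblast and meningeal genes ran from -0.15 to 0.16 in Dp3Yah mice and -0.06 to 0.06 in controls. Against the 7 genes r was 0.19, -0.32 and -0.25 for these lists. Single genes within them differed widely, with r from -0.36 to 0.73, from -0.71 to 0.35 and from -0.73 to 0.72. The lists were set against the mean deviation of the 7 genes and not against Fn1 alone. Limma called 0 genes of these lists after adjustment. The rank test called 1 of 8 in each, the endothelial Slco1a4 and the fibroblast gene Dcn higher and the mural Tagln lower in Dp3Yah mice. In Tagln all 5 Dp3Yah mice lay below every control (limma adjusted p = 0.922). Genes listed for the striatum, a region outside the hippocampus, ran from -0.09 to 0.10 in Dp3Yah mice and -0.06 to 0.04 in controls. Their r with the 7 genes was 0.14, but -0.18 without the 2 far mice, and single genes ran from -0.59 to 0.80. Limma called 0 of these 8 genes after adjustment. The rank test called 2 of 8, Penk and Tac1, both higher in Dp3Yah mice, against 4.59% of all genes. Levels differed widely within the list, with means of 9.77 and 9.54 for Penk and 6.63 and 6.70 for Drd2 in Dp3Yah and control mice. Whether hippocampal cells use these genes themselves was not examined here, so the list is not read as a measure of striatal tissue.

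**Figure D5:**
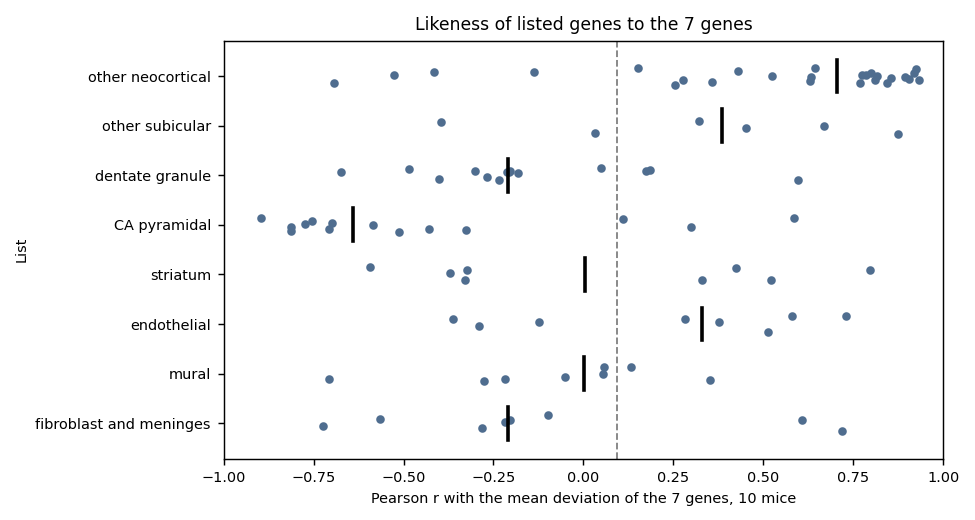
Pearson r, over the 10 mice, of each listed gene with the mean deviation of the 7 genes, by list, with the list median as a bar and the median of all other genes (0.09) as a dashed line; choroid plexus and thalamus lists, whose mice cluster, are left out. Other neocortical genes have a median of 0.71 and CA pyramidal genes of -0.64.

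Genes outside the lists also followed the 7 genes. Among 6096 genes above the median level and above the median SD, the 10 with the highest r over the 10 mice were Shisa5 (0.97), the actin-binding coronin Coro2a (0.97), Plcxd2 (0.97), the kinase Nlk (0.96), Rell2 (0.96), the Arf GTPase activator Asap1 (0.96), Plekha6 (0.96), Sobp (0.95), Phf24 (0.95) and the Ras GTPase activator Rasa3 (0.95). All 10 were lowest in Dp3Yah replicate 2, against 23.8% of all genes. In 9 of them control replicate 2 was highest, against 6.60% of all genes, Plekha6 being the exception. These 2 mice are the ends of the mean deviation by which the genes were picked, so both counts follow largely from that choice. Without these 2 mice the r of the 10 genes lay between 0.85 and 0.95. Plcxd2 had the widest span, from 6.78 in Dp3Yah replicate 2 to 7.79 in control replicate 2. Their group differences lay between -0.07 and -0.00, and limma called none (lowest adjusted p = 0.957).

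The 5 genes with the lowest r were Lrp12 (-0.94), the Bcl-2 family gene Bok (-0.91), Nectin3 (-0.90), Nrip3 (-0.89) and B3gat2 (-0.89), a glucuronyltransferase. All 5 were highest in Dp3Yah replicate 2, against 8.89% of all genes, and 4 were lowest in control replicate 2. These counts too follow largely from how the genes were picked. Nectin3 spanned 7.17 to 8.40. The order of mice given by the 7 genes was also close to the main axis of the whole array: the first principal component, with 26.2% of the variance between mice, had r = 0.93 with it (rho 0.90, and r = 0.78 without the 2 far mice). That component placed Dp3Yah replicate 2 lowest and control replicate 2 highest, and holds the 7 genes themselves. The scatter of an array around the others had r = -0.74 with the 7 genes (rho -0.52), and -0.27 without the 2 far mice, and its part in their order was not tested.

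The group comparison was then repeated with the order of mice taken into account. With the mean of the other neocortical genes as a covariate, the 7 genes had differences between -0.06 and 0.09, and 0 of 7 were called. Over all genes limma then called 5, the 3 of before with Jam2 and D16Ertd472e, which lie in the duplicated interval too. With the mean deviation of the 7 genes as the covariate it called 4, the 3 with Jam2.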

How the data were processed

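Hippocampal RNA of 5 Dp3Yah and 5 control mice was hybridised to 1 array per mouse. The deposited log2 values were made by the authors with RMA, with limma named for preprocessing (mm10; versions of these tools: not given in the sources used here). Of 35556 probe sets, 21789 carried 1 gene in the platform annotation, 1621 several and 12146 none. A gene with several probe sets was read from the one with the highest mean over all arrays, which left 19939 genes, 19856 of them found in RefSeq (GRCm38.p6). Groups were compared with limma 3.58.1 in R 4.3.3 (lmFit and eBayes, two-sided, Benjamini-Hochberg adjustment over all genes), after a test on simulated data. The members and lists were chosen with earlier results of these data known. Besides the 7 genes, the text names the 4 other neocortical and the 4 other subicular genes with the smallest p, and the 10 genes with the highest and the 5 with the lowest r with the mean deviation of the 7. Other list genes named with their values were chosen after these were seen. Alternatives were other variance models, array weights, scaling, covariates, the rank test, a replicate block and leaving out each mouse. The rank test was written after the fold-change rank test of the study, without its software, with thresholds of 0.025 and 0.975.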

Additional observations from a re-analysis of the deposited data

Results flagged for a closer look

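Of 36 sets of 5 mice examined for a mouse far from the rest of its group, 3 held one, and chance gives about 1 in 20. Dp3Yah replicate 2 had a mean deviation of -0.439 over the other subicular genes, against -0.03 to 0.13 in the other Dp3Yah mice. Control replicate 2 had 9.53 for Tbr1, against 8.95 to 9.11 in the other controls. The same control had 0.168 over the other neocortical genes, against -0.03 to 0.02 in the other controls.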

How the results depend on the processing

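None of the 7 genes was called under any of the alternatives run. Their median difference of -0.05 ran from -0.08 to 0.02 over 19 alternatives and was positive, at 0.02, with array weights, with the other neocortical mean as covariate, without Dp3Yah replicate 2 and without control replicate 2. Over all genes limma called 3, against 6 with a trended and robust variance, 5 with array weights and 5 with the other neocortical mean as covariate. The rank test called 915, a count largely set by its thresholds. Leaving out 1 mouse gave 1 to 4 calls: 4 when Dp3Yah replicate 1 was dropped, 2 when Dp3Yah replicate 5 was, and 1 when Dp3Yah replicate 4 or control replicate 3, 4 or 5 was. Mrpl39 was called each time, Ncam2 was lost in all of those with 1 or 2 calls and Hspa13 in those with 1. The cause was not tested. The replicate numbers are shared by both groups, but same-numbered mice correlated between -0.36 and 0.32 and 2 of 5 Dp3Yah mice were closest to the control of their own number, so the numbers were not taken as pairs. With a replicate block 3 genes were called, Gabpa in place of Ncam2, and the median member difference was -0.05. The median r between members of 0.39 was 0.24 without the 2 far mice and 0.30 to 0.43 without 1 mouse, an alternative in part chosen after seeing the data. Array signal over background was not analysed here, and 5 mice a group leave intervals up to 0.44 log2 units below 0.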
